A study of Mus musculus with 9 samples.

Results

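The NF-kB transcription factors and the proteins that hold them in check were followed through 9 mouse lymphomas, 5 from Eμ-Myc;Eµ-TTP-1 mice and 4 from Eμ-Myc mice. All 9 tumours arose with the Eμ-Myc transgene, which expresses the oncogene Myc in the B lineage under the Eμ enhancer of the heavy chain locus, and all came from animals of 94% C57BL/6 background. The Eμ-Myc;Eµ-TTP-1 mice carried a second transgene for TTP (tristetraprolin), an RNA-binding protein that promotes the decay of mRNAs with AU-rich elements. The age of the animals is not given in the labels, and each tumour was read on 1 Affymetrix mouse array. Of 10 genes listed, the 9 genes Rela, Rel, Relb, Nfkb2, Nfkbia, Nfkbie, Nfkbiz, Bcl3 and Tnfaip3 had probe sets under their names in the platform annotation, of 18193 genes named in all. They had 18 of the 45037 probe sets in the table. Nfkb1 was not analysed here. Of the 18 probe sets, 16 passed the filter, a log2 intensity over 4 in at least 4 arrays, and each of the 9 genes kept at least 1.

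NF-kB factors are dimers of Rel family proteins. In resting cells IkB proteins bind them and keep them in the cytoplasm, until an IkB kinase complex marks the IkB protein for destruction and the dimer enters the nucleus. A second route, set off by receptors such as CD40 and the BAFF receptor, processes the p100 product of Nfkb2 to p52, which pairs with RelB. NF-kB switches on genes of its own brakes, among them Nfkbia and Tnfaip3, so that their mRNA is often read as a trace of recent NF-kB activity. B cells depend on both routes for survival and maturation.

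Promoters of most members with an entry hold letters like those to which NF-kB is known to bind. The kB consensus, a sequence of GGG, 5 partly variable bases and CC, was searched on both strands in RefSeq promoters (build GRCm38.p6, from 250 bases before to 50 after each annotated start). Of 7 members with a promoter in that table, 6 had a match, against 5.14% of 27025 genes. Relb and Nfkbiz had no entry. Below are the promoters of Nfkbia at chr12:55492598-55492897 (minus strand), Nfkbie at chr17:45555450-45555749 (plus strand), Tnfaip3 at chr10:19015361-19015660 (minus strand) and Nfkb2 at chr19:46304487-46304786 (plus strand), shown because they belong to an inhibitor that the results turn on or to the p100 precursor, each 5′ to 3′ along its gene with the matches in capitals.
Nfkbia: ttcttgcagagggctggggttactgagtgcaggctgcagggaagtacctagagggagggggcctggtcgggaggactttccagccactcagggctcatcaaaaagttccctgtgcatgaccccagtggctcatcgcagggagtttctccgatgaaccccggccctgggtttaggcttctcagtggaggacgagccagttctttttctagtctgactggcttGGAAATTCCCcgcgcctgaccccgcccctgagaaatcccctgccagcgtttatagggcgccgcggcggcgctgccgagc
Nfkbie: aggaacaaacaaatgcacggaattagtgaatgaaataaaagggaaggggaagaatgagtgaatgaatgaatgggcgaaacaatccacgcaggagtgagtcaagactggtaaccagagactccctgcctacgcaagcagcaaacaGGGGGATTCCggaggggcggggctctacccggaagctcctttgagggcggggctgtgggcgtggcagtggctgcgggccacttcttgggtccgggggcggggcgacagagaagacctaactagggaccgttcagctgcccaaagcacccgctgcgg
Tnfaip3: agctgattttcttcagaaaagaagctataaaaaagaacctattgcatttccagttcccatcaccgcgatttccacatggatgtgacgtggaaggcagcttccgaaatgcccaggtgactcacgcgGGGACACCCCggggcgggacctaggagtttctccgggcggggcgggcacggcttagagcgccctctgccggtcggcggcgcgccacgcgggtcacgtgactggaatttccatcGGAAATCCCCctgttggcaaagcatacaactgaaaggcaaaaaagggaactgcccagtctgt
Nfkb2: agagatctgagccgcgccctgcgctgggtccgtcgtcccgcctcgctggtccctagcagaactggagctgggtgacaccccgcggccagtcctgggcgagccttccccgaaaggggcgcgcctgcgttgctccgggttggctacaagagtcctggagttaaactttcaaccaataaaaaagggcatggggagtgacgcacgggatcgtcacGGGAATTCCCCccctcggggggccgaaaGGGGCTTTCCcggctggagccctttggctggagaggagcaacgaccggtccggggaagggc
The Nfkbia match begins 29 bases before the annotated start and the Nfkbie match 106 bases before it. Tnfaip3 has matches 125 and 12 bases before the start shown, and none in the window of its other annotated start. Nfkb2 has a match 39 bases before the first of its 3 annotated starts, read there on both strands in overlapping windows, and another 11 bases before it. Rel, whose mRNA varied little, also has a match, 92 bases before its start and overlapping on the other strand, and Bcl3 has one that begins 2 bases after its start. Rela has none in this window. A stricter form of the motif, with A or T in the middle and TTCC at the end, was found in 4 of the 7 and in 0.762% of all genes. These matches describe letters and show no binding.

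Of the 9 genes, 7 reached their highest level in the same tumour, Eμ-Myc lymphoma 1, while Rela and Rel did not. The share of all genes tested that were highest in that tumour was not counted. The members vary together, so these 7 are not 7 separate observations. Relb, Nfkbia, Nfkbie and Tnfaip3 were high there and, less so, in Eμ-Myc;Eµ-TTP-1 lymphomas 3 and 5 and Eμ-Myc lymphoma 3. Each of these levels is a log2 intensity of the gene's probe set with the highest mean, and intensities of different genes are not compared. In bulk tumours, more cells that express a gene and more mRNA per cell cannot be told apart.

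**Figure D1:**
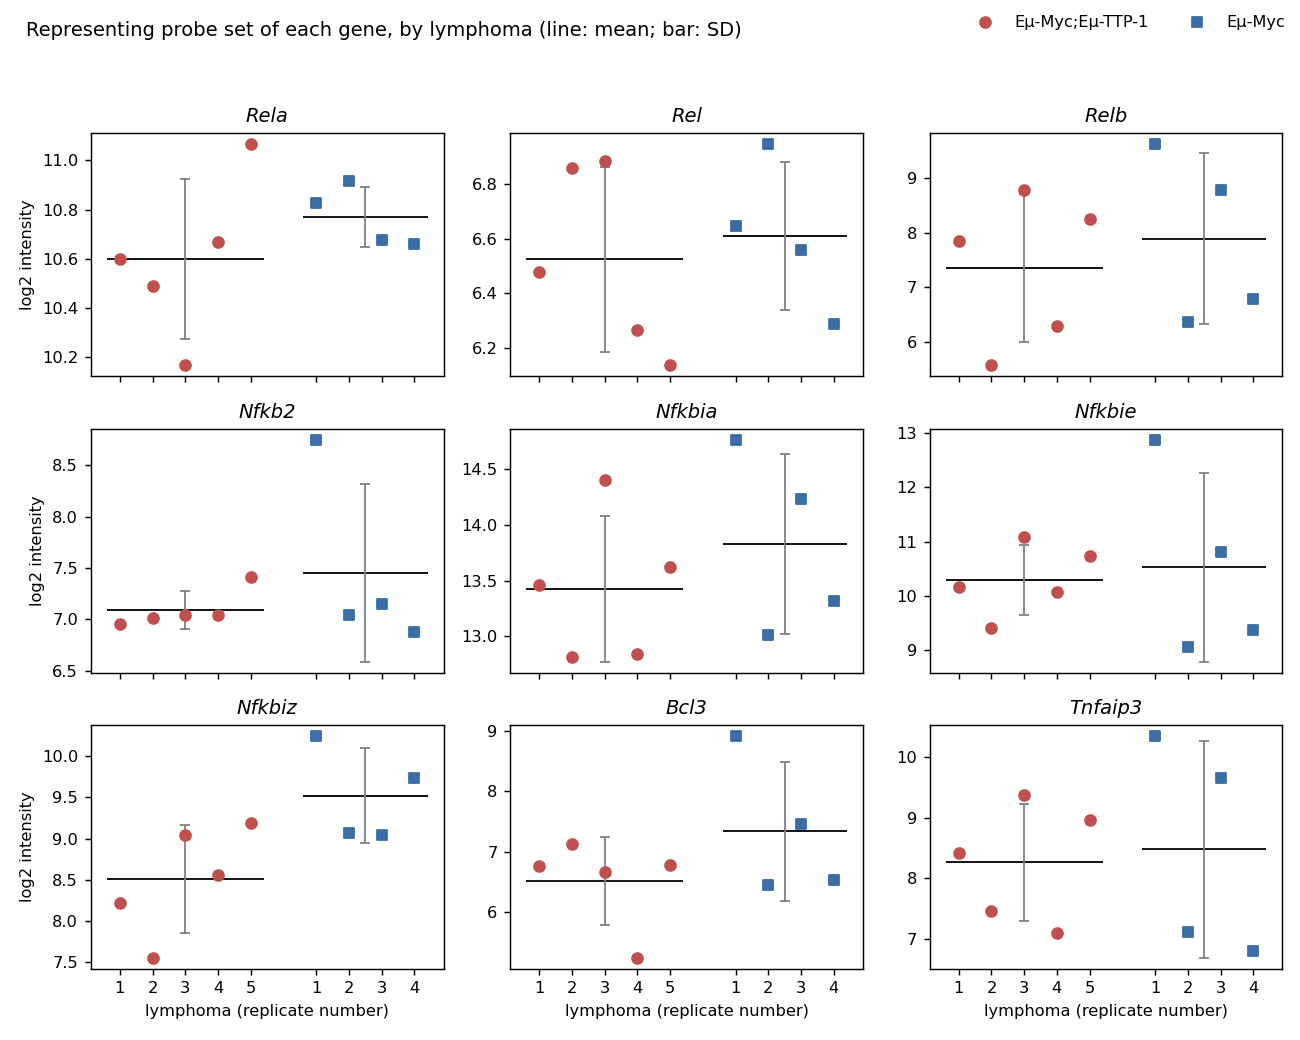
The y axes give the log2 intensity of each gene's representing probe set and the x axes the lymphomas by replicate number, Eμ-Myc;Eµ-TTP-1 as circles and Eμ-Myc as squares; lines are means and bars SD. The square of Eμ-Myc lymphoma 1 is the highest point for 7 of 9 genes, and in every panel the genotypes overlap; the y axes differ between panels.

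Among the genes of the Rel proteins, Rela and Rel were nearly level across the tumours. Rela, which encodes p65, read 10.60, 10.49, 10.16, 10.67 and 11.07 in Eμ-Myc;Eµ-TTP-1 lymphomas 1 to 5, against 10.83, 10.92, 10.68 and 10.66 in Eμ-Myc lymphomas 1 to 4. The Eμ-Myc values lay within the Eμ-Myc;Eµ-TTP-1 range. Rel, which encodes c-Rel, the subunit most tied to lymphoid cells, read 6.48, 6.86, 6.88, 6.27 and 6.13 in Eμ-Myc;Eµ-TTP-1 lymphomas, against 6.64, 6.95, 6.56 and 6.29 in Eμ-Myc lymphomas. The highest tumour exceeded the lowest 1.87-fold for Rela and 1.76-fold for Rel. Their SDs over the 9 tumours, 0.26 and 0.30, lay at percentiles 31.9 and 39.7 of the 10172 genes tested, whose median SD was 0.36.

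Relb spread the widest of the 9 genes. It encodes RelB, the partner of p52 in the second route, and read 7.85, 5.57, 8.79, 6.30 and 8.24 in Eμ-Myc;Eµ-TTP-1 lymphomas 1 to 5, against 9.62, 6.37, 8.78 and 6.79 in Eμ-Myc lymphomas 1 to 4. High and low tumours occurred in both genotypes, and the highest exceeded the lowest 16.6-fold, or 9.31-fold without Eμ-Myc lymphoma 1. Its SD of 1.39 lay at percentile 93.1. Nfkb2, the gene of p100 and p52, read 6.95, 7.01, 7.05, 7.05 and 7.41 in Eμ-Myc;Eµ-TTP-1 lymphomas, against 8.74, 7.05, 7.15 and 6.88 in Eμ-Myc lymphomas, on a probe set of the _x_at class, which can also bind other transcripts. Eμ-Myc lymphoma 1 was the highest on it, and Eμ-Myc;Eµ-TTP-1 lymphoma 5 also stood above the rest of its genotype. The other Nfkb2 probe set read 6.87, 6.47, 7.58, 5.87 and 7.66 in Eμ-Myc;Eµ-TTP-1 lymphomas, against 8.998, 6.42, 7.34 and 6.08 in Eμ-Myc lymphomas, a wider spread with the same tumour on top. The 2 probe sets had r = 0.84 over the 9 tumours, given as a description.

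The cytoplasmic inhibitors Nfkbia and Nfkbie were high in the tumours in which Relb was high. Nfkbia, the gene of IkBα, read 13.46, 12.81, 14.40, 12.84 and 13.62 in Eμ-Myc;Eµ-TTP-1 lymphomas 1 to 5, against 14.76, 13.01, 14.23 and 13.31 in Eμ-Myc lymphomas 1 to 4. The order of the 9 tumours was the same as for Relb. Its 5 probe sets told the same story, with r between them from 0.97 to 0.99 over the 9 tumours. Nfkbie, the gene of IkBε, read 10.16, 9.41, 11.09, 10.07 and 10.73 in Eμ-Myc;Eµ-TTP-1 lymphomas, against 12.87, 9.06, 10.81 and 9.38 in Eμ-Myc lymphomas. The Eμ-Myc tumours held both its highest and its lowest value, and its SD was 0.65 in Eμ-Myc;Eµ-TTP-1 tumours (n = 5) and 1.74 in Eμ-Myc tumours (n = 4). Without Eμ-Myc lymphoma 1 the Eμ-Myc SD was 0.93 (n = 3). The highest tumour exceeded the lowest 14.0-fold for Nfkbie, or 4.09-fold without Eμ-Myc lymphoma 1, and 3.85-fold for Nfkbia. The second Nfkbie probe set followed the first with r = 0.98.

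Tnfaip3 encodes A20, an enzyme that edits ubiquitin chains on signalling proteins upstream of the IkB kinase and so ends NF-kB signalling. It read 8.42, 7.46, 9.38, 7.10 and 8.96 in Eμ-Myc;Eµ-TTP-1 lymphomas 1 to 5, against 10.34, 7.10, 9.66 and 6.79 in Eμ-Myc lymphomas 1 to 4. Eμ-Myc tumours held its highest 2 values and its lowest, and the highest exceeded the lowest 11.7-fold, or 7.29-fold without Eμ-Myc lymphoma 1. Its other probe set lay below the filter in all 9 arrays, at 2.14 to 2.52 in Eμ-Myc;Eµ-TTP-1 and 2.18 to 3.27 in Eμ-Myc lymphomas.

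The genes of the nuclear IkB proteins, Nfkbiz and Bcl3, were also highest in Eμ-Myc lymphoma 1. Nfkbiz encodes IkBζ, which acts on NF-kB already bound to DNA, and read 8.22, 7.56, 9.04, 8.56 and 9.18 in Eμ-Myc;Eµ-TTP-1 lymphomas, against 10.24, 9.07, 9.04 and 9.74 in Eμ-Myc lymphomas. The genotypes overlapped only through Eμ-Myc;Eµ-TTP-1 lymphomas 3 and 5, which reached the lowest Eμ-Myc values. A second Nfkbiz probe set read 6.03, 4.65, 6.29, 6.28 and 6.54 in Eμ-Myc;Eµ-TTP-1 lymphomas, against 8.22, 5.42, 6.52 and 7.47 in Eμ-Myc lymphomas, and the remaining one lay below the filter, at 2.08 to 2.37 in Eμ-Myc;Eµ-TTP-1 and 2.37 to 3.70 in Eμ-Myc lymphomas. Bcl3, whose protein binds p50 and p52 in the nucleus, read 6.77, 7.12, 6.67, 5.24 and 6.77 in Eμ-Myc;Eµ-TTP-1 lymphomas, against 8.91, 6.44, 7.46 and 6.53 in Eμ-Myc lymphomas. It was lowest in Eμ-Myc;Eµ-TTP-1 lymphoma 4.

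None of the 9 genes differed between the genotypes by the test across all genes. The comparison asked whether tumours with the TTP transgene hold other levels of these mRNAs than tumours without it. With limma and Benjamini-Hochberg adjustment over 10172 genes, 0 members had an adjusted p under 0.05, where the background was 0% of all genes. At an unadjusted p under 0.05, 1 member was called, Nfkbiz, against 5.67% of all genes. It was lower, as 1.8% of all genes were, while 0 members and 3.87% of all genes were higher. Over all genes 394 were higher and 183 lower at that level, and 289 higher and 252 lower after quantile normalisation. The genotypes did not overlap for 0 members and for 1.64% of all genes.

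Nfkbiz averaged 8.51 ± 0.66 in Eμ-Myc;Eµ-TTP-1 lymphomas and 9.52 ± 0.58 in Eμ-Myc lymphomas (SD, n = 5 and 4). The log2 difference was -1.01 (SE 0.39, 95% interval -1.89 to -0.13), or 0.497-fold, with a limma adjusted p of 0.845. The exact permutation test over all splits of the tumours into 5 and 4 gave p = 0.0714, two-sided, where the smallest it can give is 0.00794. Its second probe set had a difference of -0.95 (95% interval -2.29 to 0.39). Leaving out Eμ-Myc;Eµ-TTP-1 lymphoma 2 or Eμ-Myc lymphoma 1 brought the difference of the first to -0.77 in either case. Its unadjusted p was no longer under 0.05 without either of these tumours, without Eμ-Myc;Eµ-TTP-1 lymphoma 1, without Eμ-Myc lymphoma 4, or with the mean of its probe sets.

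The differences of the other 8 genes were all below 0, from -0.08 to -0.82, and each 95% interval included 0. Bcl3 had -0.82 (95% interval -2.12 to 0.47, exact permutation p = 0.286), Relb -0.54 (-2.54 to 1.45, p = 0.579) and Nfkbia -0.40 (-1.41 to 0.61, p = 0.421). Nfkb2 had -0.36 (-1.19 to 0.46), Nfkbie -0.23 (-1.94 to 1.47), Tnfaip3 -0.21 (-2.11 to 1.69), Rela -0.17 (-0.58 to 0.23) and Rel -0.08 (-0.56 to 0.39). The limma adjusted p-values of the 9 genes ran from 0.845 to 0.986. A negative difference of any size was found for 9 of 9 members, with a median of -0.36, and for 41.1% of all genes, with a median of 0.05. The members share tumours and vary together, so their 9 signs are not 9 separate observations. Some marker lists of cell types also lay to one side between the genotypes, with 0 genes past the limma threshold. Of the granulocyte genes tested, 0 were higher and 9 lower (median -1.97), of the macrophage genes 2 were higher and 13 lower (median -0.30), and of the precursor B cell genes 9 were higher and 0 lower (median 1.51). Other lists were mixed, with 5 pan-B genes higher and 4 lower, and 4 stroma and endothelium genes higher and 5 lower. The part of these cells in the members' differences was not tested. One tumour carried much of this: without Eμ-Myc lymphoma 1, 5 of 9 differences were below 0 and 4 above, with a median of -0.07. Nfkbie then stood at 0.55, Tnfaip3 at 0.41, Nfkb2 at 0.066 and Relb at 0.035, while Bcl3 stood at -0.30 and Nfkbia at -0.09.

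**Figure D2:**
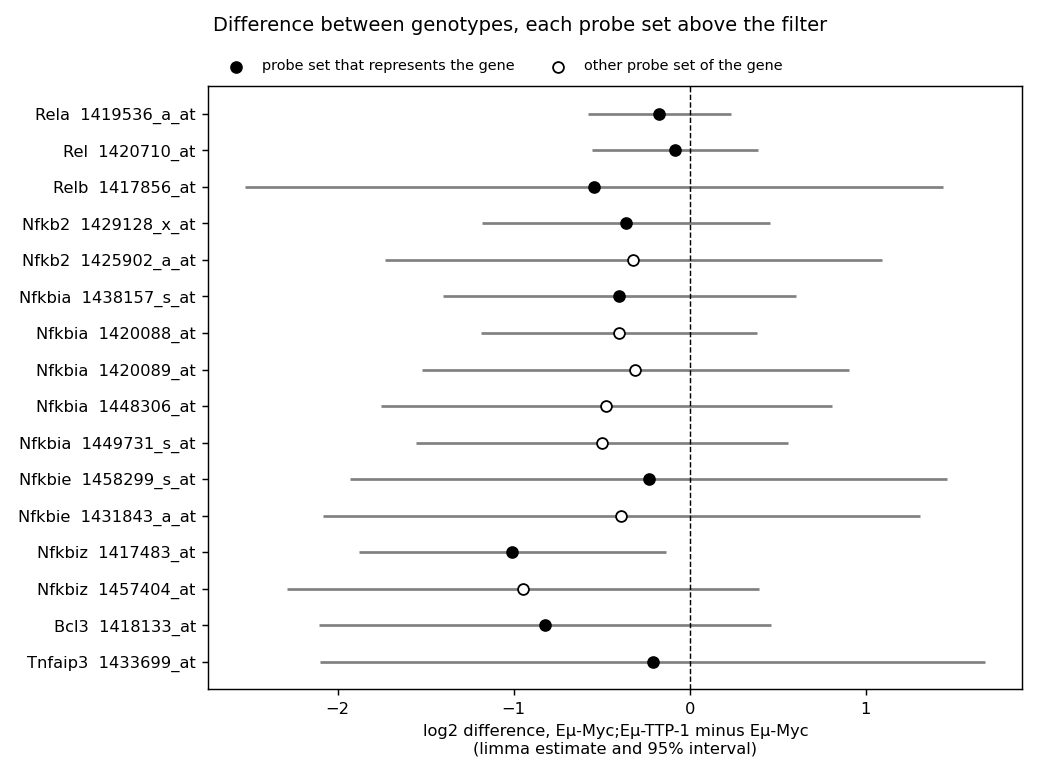
The x axis gives the log2 difference, Eμ-Myc;Eµ-TTP-1 minus Eμ-Myc, of each of the 16 probe sets above the filter, with its 95% interval from limma fitted over all probe sets; filled points represent the gene, open points are its other probe sets. All points lie below 0, and the interval of 1 probe set, the first of Nfkbiz, does not reach 0.

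Most of the spread lay within the genotypes, as for genes in general. Of the variance over 9 tumours, a median of 92.1% over all genes tested was within genotypes. Above it were Tnfaip3 with 99.3%, Nfkbie 98.9%, Rel 97.7% and Relb 95.7%. Below it were Nfkbia with 91.1%, Nfkb2 89.0%, Rela 87.6%, Bcl3 80.2% and Nfkbiz 54.6%. Relb, Nfkbia, Nfkbie and Tnfaip3 were high and low in much the same tumours. The 6 pairs among these 4 genes had Pearson r from 0.88 to 0.96 and Spearman rho from 0.83 to 1.00 over the 9 tumours. Of the 36 pairs of members, 9 had a Benjamini-Hochberg adjusted exact permutation p under 0.05 for r and 6 for rho. The permutation ran over all pairings of the 9 tumours. How many pairs among all genes tested would pass was not counted, so these counts are not read as a property of the family. The closest pair was Relb and Nfkbia (r = 0.96, adjusted exact p = 0.000694; rho = 1.00, adjusted exact p = 0.000198). Nfkbia and Tnfaip3 had r = 0.92 (adjusted exact p = 0.00552) and rho = 0.83 (0.0496), and Nfkbie and Tnfaip3 had r = 0.90 (adjusted exact p = 0.00526) and rho = 0.90 (0.0365).

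Without the 2 tumours farthest from the median of the first gene, r of the 6 pairs among these 4 genes ran from 0.74 to 0.97. The 3 other pairs that passed were Nfkb2 with Nfkbie, Nfkb2 with Tnfaip3, and Bcl3 with Tnfaip3, each with an adjusted exact p of 0.0413 for r. They did not pass for rho. Their r of 0.85, 0.67 and 0.74 became 0.50, 0.59 and 0.53 without the 2 farthest tumours, so they rested in part on those tumours. With the mean of each gene's probe sets, Nfkb2 had r = 0.94 with Nfkbie (adjusted exact p = 0.00517), 0.87 with Tnfaip3 (0.0027) and 0.86 with Nfkbia (0.00743), the last a pair that did not pass on the single probe set. Without Eμ-Myc lymphoma 1, 1 of the 36 pairs passed, Relb and Nfkbia (r = 0.95, adjusted exact p = 0.00268), while the other 5 of the 6 kept r from 0.83 to 0.91 with adjusted exact p from 0.0664 to 0.0818. With values centred within genotype, 7 pairs passed and the highest r was 0.96. Each genotype alone has too few tumours for a correlation. Rela and Rel stood outside: their pairs with the other members had r from -0.20 to 0.35 and with each other -0.44, and none of these passed.

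**Figure D3:**
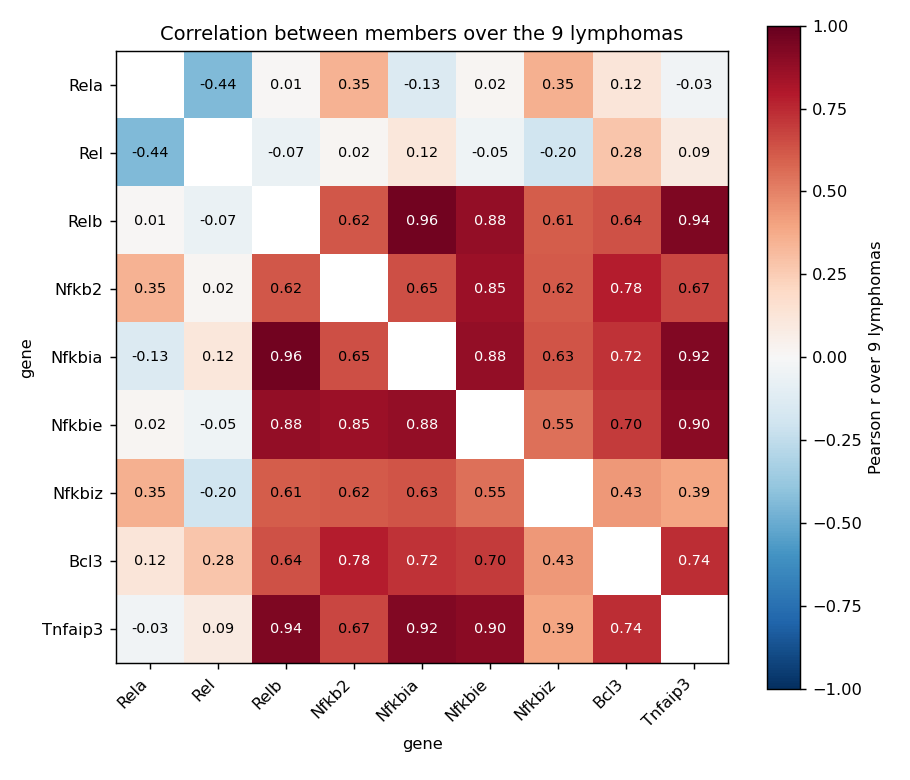
Each cell gives Pearson r of a pair of members over the 9 lymphomas, on a colour scale from -1 to 1. Relb, Nfkbia, Nfkbie and Tnfaip3 form cells of 0.88 or more with each other, and the rows of Rela and Rel are pale.

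Among pathway genes outside the family, in lists that are textbook groups, a few single genes had a high r with the mean of the members. The member profile used here is the mean of the 9 genes after each was scaled to the same spread, and it stood at 1.54 in Eμ-Myc lymphoma 1, 0.40 in Eμ-Myc lymphoma 3 and 0.22 and 0.20 in Eμ-Myc;Eµ-TTP-1 lymphomas 3 and 5, with the other 5 tumours below 0. Of all other genes tested, 1.34% had r over 0.8 with it. Of the pathway lists, 1 of 13 IkB-type regulators (7.69%), 1 of 14 kinases (7.14%), 1 of 19 adaptors (5.26%), 1 of 13 receptors (7.69%), 0 of 3 ligands and 0 of 21 target genes did, numbers too small to set against that share. The highest target gene was Irf4, with r = 0.62. The target list is not complete and holds no gene of the other pathway lists, where Birc3, Cd40 and Ltb stand. Birc3, which encodes an inhibitor of apoptosis and ubiquitin ligase of the pathway, had r = 0.88, and read 10.39, 10.17, 11.41, 10.55 and 10.23 in Eμ-Myc;Eµ-TTP-1 lymphomas, against 12.78, 10.91, 11.22 and 10.05 in Eμ-Myc lymphomas. The receptor gene Cd40 had r = 0.84. It read 9.16 in Eμ-Myc lymphoma 1, against 5.22 to 5.99 in Eμ-Myc;Eµ-TTP-1 lymphomas and 5.59 to 6.27 in the other Eμ-Myc lymphomas. The ligand gene Ltb, for lymphotoxin beta, had r = 0.74 and read 10.39, 6.93, 12.83, 8.81 and 11.82 in Eμ-Myc;Eµ-TTP-1 lymphomas, against 12.68, 7.49, 10.11 and 9.21 in Eμ-Myc lymphomas. Cdk9, which encodes a kinase of transcription elongation, had r = 0.82 and Irak2, a kinase gene of toll-like receptor signalling, 0.81. Cdk9 read 13.79 in Eμ-Myc lymphoma 1, against 13.31 to 13.41 in Eμ-Myc;Eµ-TTP-1 and 13.39 to 13.47 in the other Eμ-Myc lymphomas. Cd40 and Cdk9 thus stood apart mainly in that tumour, and their r without it was not computed. Irak2 read 3.91 to 4.62 in Eμ-Myc;Eµ-TTP-1 and 4.21 to 5.18 in Eμ-Myc lymphomas, near the filter. These r are descriptions over 9 tumours.

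Across genes in general, the closest to the member profile were Mtx3 (r = 0.96), Ppp1r15a (0.95), Eme2 (0.95), Eml5 (0.95) and Rnf215 (0.94), again over 9 tumours and without a test. Ppp1r15a, which encodes a stress-induced phosphatase subunit, was also the gene outside the family closest to Nfkbia and to Relb (r = 0.96 with each), and it read 6.44 to 7.05 in Eμ-Myc;Eµ-TTP-1 and 6.63 to 7.46 in Eμ-Myc lymphomas. Mtx3 was closest to Nfkbie (0.96), ahead of Tspyl2 (0.95), and Mink1 and Xpo7 were closest to Tnfaip3 (0.97 each). B230307C23Rik and Krt222 were closest to Nfkb2 (0.98 each), Psg23 and Fam174a to Bcl3 (0.94 each), and Hbs1l (0.95) and Hmgn1 (0.93) to Nfkbiz. Krt222 read 9.44 in Eμ-Myc lymphoma 1, against 5.09 to 5.91 in Eμ-Myc;Eµ-TTP-1 and 5.18 to 5.64 in the other Eμ-Myc lymphomas. B230307C23Rik read 12.16 there, against 8.71 to 9.51 and 9.11 to 9.17. Without that tumour the highest value of the Nfkb2 probe set used here exceeded the lowest 1.44-fold, so these r rest largely on 1 tumour. The other Nfkb2 probe set still ran from 5.87 to 7.66 without it. Ndufv3 (0.94) and Zdhhc16 (0.93) were closest to Rela, and Tut7 (0.89) and Zc3h4 (0.86) to Rel. Of the 10163 genes outside the family, 136 had r over 0.8 with the member profile.

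By genotype, the lists around the family showed 0 genes past the limma threshold, where the background was 0% of all genes. Of 13 other IkB-type and interacting regulators, 3 were higher and 10 lower, with a median difference of -0.08. Nfkbid, another nuclear IkB gene, had -0.63, and Pdlim2 -0.37, while Otud7b had 0.39 and Nfkbil1 0.29. Of 14 genes of the IkB kinase complex and upstream kinases, 9 were higher and 5 lower (median 0.10). Map3k8, a kinase upstream of ERK and NF-kB, had -1.67 and Irak2 -0.44, while Map3k14, the kinase NIK of the second route, had 0.34 and Tab1 0.33. Of 19 adaptors and ubiquitin ligases, 10 were higher and 9 lower (median 0.0015). Traf1 had -0.83 and Birc3 -0.69, while Nod1 had 0.52 and Fbxw11 0.22.

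Of 13 tested receptors, 4 were higher and 9 lower (median -0.17). Tlr1, a toll-like receptor gene, had -2.26 (SE 0.64, limma adjusted p = 0.845) and Cd40 -1.21, while Tlr4 had 1.12 and Cd180 0.82. Of 12 ligands, 3 passed the filter, Tnf (0.79), Lta (0.44) and Ltb (0.28), so that a count over them says little of the list. Of 21 target genes, 9 were higher and 12 lower (median -0.08), with Ccr7 at -1.79 and Gadd45b at -0.48, and with Pim1 at 0.78 and Csf1 at 0.75. All genes tested had a median of 0.05.

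**Figure D4:**
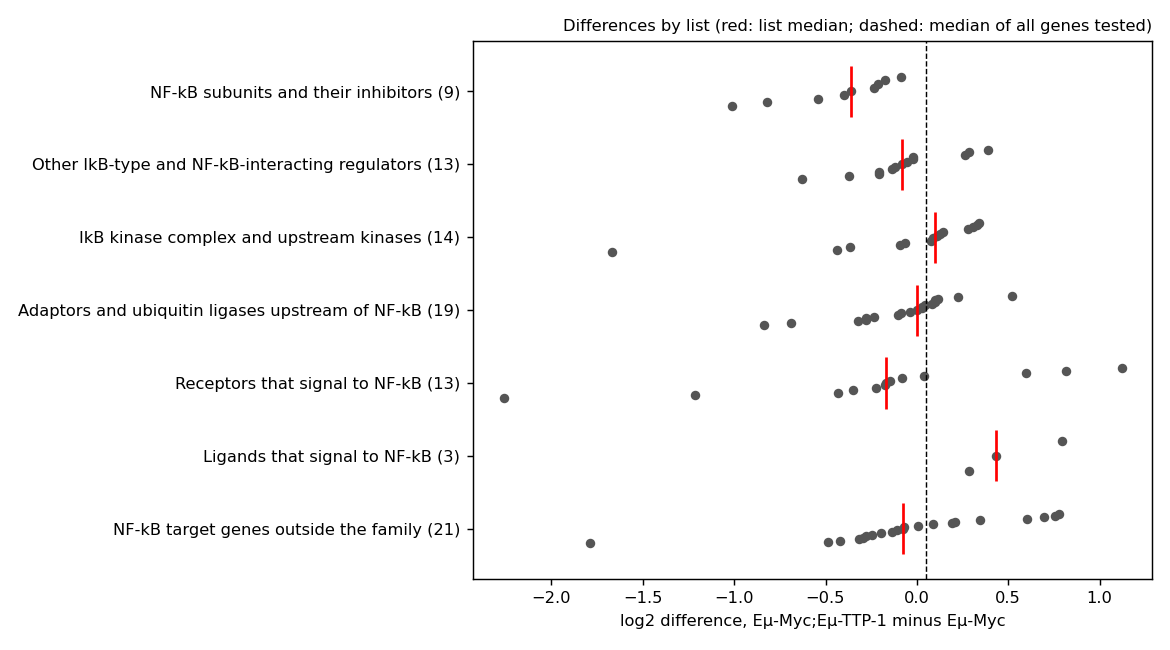
The x axis gives the log2 difference, Eμ-Myc;Eµ-TTP-1 minus Eμ-Myc, of every tested gene of each list; red bars are list medians, the dashed line is the median of all genes tested, and the number of genes stands in brackets. The 9 members lie below 0, and each of the other lists but the 3 ligands spans 0.

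Each member was also set beside the median of the genes on its own chromosome. Each value here is a log2 deviation from the gene's median over the 9 tumours. Rela, on chromosome 19, stood at -0.50 in Eμ-Myc;Eµ-TTP-1 lymphoma 3 and 0.40 in lymphoma 5, where the 370 other genes of chromosome 19 had medians of -0.46 and 0.33. After subtraction of the chromosome's median, 55.5% of the SD of Rela over the tumours was left. Nfkb2 lies on the same chromosome. It stood at 0.36 in Eμ-Myc;Eµ-TTP-1 lymphoma 5 but at 0.00 in lymphoma 3 and at 1.70 in Eμ-Myc lymphoma 1, where the chromosome's median was -0.10.

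Nfkbia stood at 0.77 in Eμ-Myc lymphoma 3, where chromosome 12 had a median of 0.34, but at 0.94 in Eμ-Myc;Eµ-TTP-1 lymphoma 3 and 1.29 in Eμ-Myc lymphoma 1, where the chromosome stood near 0. Nfkbiz stood at 0.70 in Eμ-Myc lymphoma 4, where chromosome 16 had a median of 0.50, and its genotype difference was -0.91 with each chromosome centred. Nfkbie stood at 0.57 in Eμ-Myc;Eµ-TTP-1 lymphoma 5, where chromosome 17 had a median of 0.33, and at 2.71 in Eμ-Myc lymphoma 1, where it was near 0. For the 8 genes other than Rela, 94.8% to 106% of the SD was left after the subtraction. The chromosomes' part in the members' levels was not tested.

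**Figure D5:**
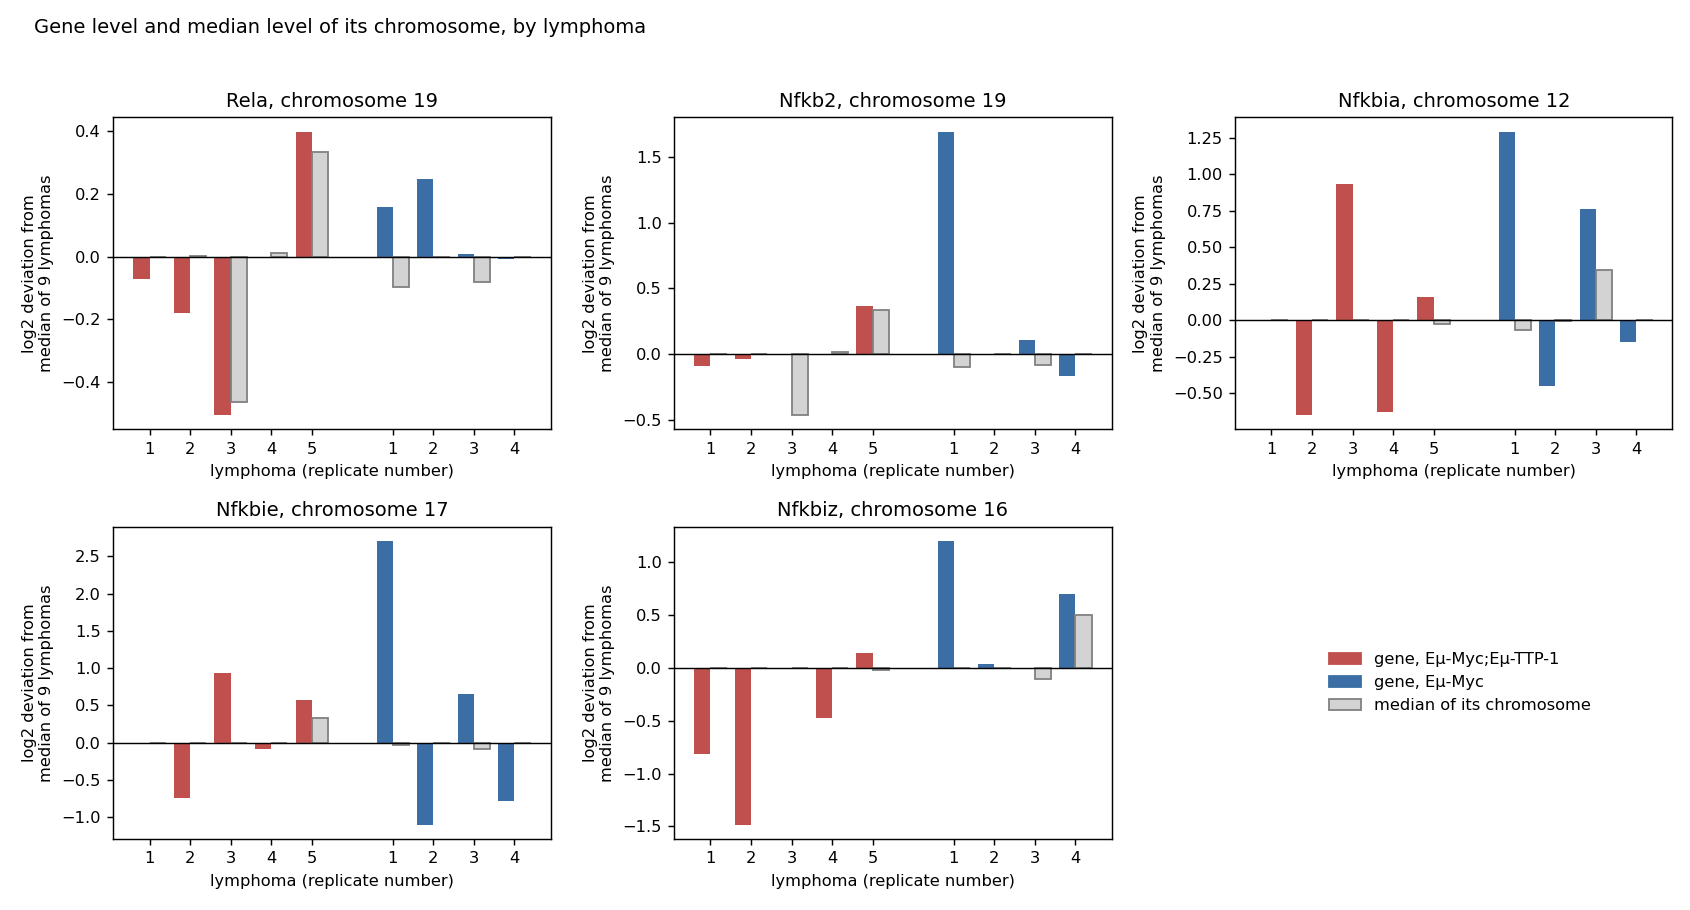
The y axes give log2 deviations from the median of the 9 lymphomas, of the gene (coloured bars, Eμ-Myc;Eµ-TTP-1 lymphomas at the left and Eμ-Myc at the right) and of the other tested genes of its chromosome (grey bars), for the 5 members whose chromosome reached 0.3 in a tumour. Rela and chromosome 19 move alike in Eμ-Myc;Eµ-TTP-1 lymphomas 3 and 5, while the bar of Eμ-Myc lymphoma 1 stands without a grey one for Nfkb2, Nfkbia, Nfkbie and Nfkbiz.

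Most B cell genes were well above the filter, but not in every tumour. Cd79a, a subunit of the B cell receptor, read 13.69 to 14.04 in Eμ-Myc;Eµ-TTP-1 and 13.24 to 14.06 in Eμ-Myc lymphomas, and 9 of 9 pan-B genes with a probe set passed the filter. Eμ-Myc;Eµ-TTP-1 lymphoma 2 stood apart, with a mean pan-B level of 9.86, against 11.83 to 12.49 in the other Eμ-Myc;Eµ-TTP-1 and 11.37 to 12.25 in Eμ-Myc lymphomas. In it Cd22 read 6.99 and Fcrla 4.78, against 11.91 to 12.93 and 11.21 to 12.96 in the other Eμ-Myc;Eµ-TTP-1 and 12.12 to 12.91 and 10.64 to 12.30 in Eμ-Myc lymphomas. Blk, a kinase gene of B cells, read 6.64 there and 6.01 in Eμ-Myc lymphoma 4. Some other pan-B genes were not low in Eμ-Myc;Eµ-TTP-1 lymphoma 2, where Cd79a read 14.04, Cd79b 15.30 and Ebf1 12.08. Cd79b read 14.40 to 14.93 in the other Eμ-Myc;Eµ-TTP-1 and 14.37 to 14.98 in Eμ-Myc lymphomas. Ebf1 read 11.58 to 12.57 and 10.80 to 11.27 in them. The mean precursor B cell level of Eμ-Myc;Eµ-TTP-1 lymphoma 2, 12.16, was the highest of the 9 tumours. Eμ-Myc;Eµ-TTP-1 lymphoma 2 had the lowest Relb, Nfkbia and Nfkbiz, and without it the Relb difference was -0.10. Markers of B cell stages and of other cells were also present. The summed intensity of 9 of 11 precursor B cell genes ran from 38053 to 107192 in Eμ-Myc;Eµ-TTP-1 and from 13636 to 72092 in Eμ-Myc lymphomas. That of 15 of 16 macrophage genes ran from 37657 to 57479 in Eμ-Myc;Eµ-TTP-1 and from 31182 to 80210 in Eμ-Myc lymphomas, that of 9 of 11 granulocyte genes from 226 to 22620 in Eμ-Myc;Eµ-TTP-1 and from 832 to 20454 in Eμ-Myc lymphomas. That of 6 of 10 T cell genes ran from 632 to 1400 in Eμ-Myc;Eµ-TTP-1 and from 163 to 1274 in Eμ-Myc lymphomas. No dendritic cell gene of 7 passed the filter. Eμ-Myc lymphoma 1 was the highest for 7 of the 9 members. Its mean log2 level of the 21 tested genes in the target list was 8.70. That lay within the 8.59 to 9.02 of the Eμ-Myc;Eµ-TTP-1 and the 8.59 to 9.22 of the other Eμ-Myc lymphomas. This tumour had a mean log2 macrophage level of 9.23. That lay within the 7.97 to 9.89 of the Eμ-Myc;Eµ-TTP-1 lymphomas and below the 9.44 to 10.05 of the other Eμ-Myc lymphomas. Its granulocyte level was 4.81, the lowest of the 4 Eμ-Myc lymphomas. The highest r with the member profile was 0.37 among macrophage genes (Marco) and 0.26 among granulocyte genes (Mmp9). It was 0.82 among mature B cell genes (Cd55), 0.65 among pan-B genes (Blk), 0.56 among stroma and endothelium genes (Pecam1) and 0.46 among precursor B cell genes (Rag1). These are the top genes of their lists, and each list also held genes with r below 0. The median r was -0.17 for macrophage, -0.34 for granulocyte and 0.16 for mature B cell genes. It was 0.25 for pan-B, -0.30 for stroma and endothelium and 0.12 for precursor B cell genes, against -0.10 over all genes but the members. The part of these cells in the members' levels was not tested.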

How the data were processed

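RNA of 9 lymphomas was read on 1 array each; the arrays are the replicates, and their number limits the precision. The authors deposited intensity values on a linear scale, made with GCRMA per the submitters' processing notes (version not given in the sources used here), from 1.56 to 123105, with array medians of 12.2 to 13.4. Log2 was taken without a pseudocount. The platform annotation gave 1 gene for 34945 of the 45037 probe sets, several for 932 and none for 9160; 34741 matched RefSeq genes (GRCm38.p6, used for names, gene order and promoters). For each gene the brightest probe set on average stood for it, and 10172 genes with log2 over 4 in at least 4 arrays were tested with limma 3.58.1 in R 4.3.3 (lmFit, eBayes, no covariate, Benjamini-Hochberg, threshold 0.05), a method tested on simulated data. All 18464 single-gene probe sets above the filter were fitted likewise. Members and lists were chosen with earlier results of these data known. By the design, the genes named are all members, up to 2 at each end of a pathway list and the genes closest in pattern. Others were added after the values were seen. These were genes with r over 0.8 within a list, the highest marker gene of a cell type, Irf4, Cd79a, Cd79b, Cd22, Ebf1, Fcrla and Blk. The values of Ltb, Ppp1r15a, Krt222 and B230307C23Rik and the tumours singled out were also added then. Alternatives changed the filter, probe set choice, normalisation, pseudocount, prior, array weights, replicate block, chromosome centring and each array in turn. Protein sequences were not used here. Scan dates and batches were not examined here. Equal replicate numbers did not pair the arrays (r of deviations -0.09 to 0.20).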

Additional observations from a re-analysis of the deposited data

Results flagged for a closer look

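Of 32 groups of values of members' probe sets examined, 4 held a tumour far from the rest of its group. In these 4, the gap to the nearest other tumour was 0.73 to 0.85 of the group's range. Chance gives about 5%, or 1 in 20, of separate groups. The 32 groups share the same tumours, and probe sets and members vary together, so 4 of 32 is not set against that share. Bcl3 read 5.24 in Eμ-Myc;Eµ-TTP-1 lymphoma 4, against 6.67 to 7.12 in the other Eμ-Myc;Eµ-TTP-1 lymphomas. The Nfkb2 probe set that represents the gene read 7.41 in Eμ-Myc;Eµ-TTP-1 lymphoma 5, against 6.95 to 7.05 in the others of that genotype, and 8.74 in Eμ-Myc lymphoma 1, against 6.88 to 7.15 in the other Eμ-Myc lymphomas. The second Nfkbiz probe set read 4.65 in Eμ-Myc;Eµ-TTP-1 lymphoma 2, against 6.03 to 6.54 in the others of that genotype.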

How the results depend on the processing

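No member passed the threshold in any alternative run. Rela, Nfkbia, Nfkbiz and Bcl3 kept a difference below 0 in all of them, Nfkbiz from -1.18 to -0.77. With array weights the differences of Relb, Nfkbie and Tnfaip3 turned to 0.029, 0.38 and 0.36, and with the replicate block that of Rel turned to 0.013, a difference whose adjusted p from limma was 0.994; the block changed no call. When each array was left out, differences ran from -0.55 to 0.066 for Nfkb2, -0.19 to 0.028 for Rel, -1.05 to 0.035 for Relb, -0.72 to 0.55 for Nfkbie and -0.77 to 0.41 for Tnfaip3. The genes called among all ranged from 0 to 8 (8 without Eμ-Myc replicate 3, 1 without Eμ-Myc replicate 4), none of them a member; genes at an unadjusted p under 0.05 ranged from 458 to 793 and those without overlap from 240 to 537. With all probe sets fitted, 1107 had an unadjusted p under 0.05 against 577 genes and 329 did not overlap against 167, with more features tested. Pairs of members that passed ranged from 1 (without Eμ-Myc replicate 1) to 10 with an array left out, and were 13 with the mean of probe sets, against 9; r of Rel and Nfkbia ran from -0.066 to 0.33 and of Rela and Nfkbia from -0.35 to 0.29. Counts of genes without overlap are not comparable between runs with unlike numbers of arrays. The stricter kB form, which can match only where the consensus does, was found in 4 members, against 6. The cause of the other changes was not tested.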
